A study of Arabidopsis thaliana with 18 samples.

Results

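Anthocyanins are the red and purple flavonoid pigments that accumulate in vegetative tissue under stress, N limitation included. In Arabidopsis their late biosynthetic genes are switched on by a complex of an R2R3-MYB factor, a bHLH factor and the WD40 protein TTG1. The MYB partner is one of the closely related proteins MYB75 (also called PAP1), MYB90 (PAP2), MYB113 and MYB114, and TT8 is one of the bHLH partners. The complex acts on the late enzymes: DFR and LDOX make the coloured anthocyanidin, UF3GT and UGT75C1 add sugars to the anthocyanin, and 5MAT adds a malonyl group. These 5 regulators, *MYB75* (AT1G56650), *MYB90* (AT1G66390), *MYB113* (AT1G66370), *MYB114* (AT1G66380) and *TT8* (AT4G09820), and 5 enzymes, *DFR* (AT5G42800), *LDOX* (AT4G22880), *UF3GT* (AT5G54060), *5MAT* (AT3G29590) and *UGT75C1* (AT4G14090), were chosen by their AGI loci. They are 10 of 26716 genes with a probe on the array. The set was proposed with earlier results of the same data in view, among them the lower *MYB90* signal after KNO3 resupply in both lines, so the changes with resupply and all *MYB90* values on starved or resupplied arrays are given as a description, with no p-value.

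The arrays were one-colour Agilent Arabidopsis arrays of whole-shoot RNA from 2 complementation lines. *AO* encodes L-aspartate oxidase, the plastid enzyme of the first step of NAD synthesis. AOpro(mut)-AO plants carried *AO* under its own promoter with a mutated nitrate-responsive element, and AOpro(wt)-AO plants carried it under the unmutated promoter, both in the *ao* null background *fin4-2*. Sampling was after 17 days of hydroponic growth in dilute MS solution with N (0 d), after 3 further days on a solution without N that held K2SO4 (N starvation), and 24 h after 10 mM KNO3 was given to the starved plants (resupply). No group held plants kept on N to the age of the starved or resupplied plants. N treatment and plant age therefore cannot be told apart in any comparison between stages. Each of the 6 groups had 3 arrays, each from the pooled shoots of a few seedlings. Each genotype was a single transgenic line, so the promoter mutation and anything else that sets the lines apart cannot be told apart.

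Over the 18 arrays the 75th percentile of the processed signal was 2221 to 3122, and 72.6% to 76.1% of spots passed the scanner software's test for a signal well above background. The *AO* signal followed the line labels at every stage, with log2 means of -1.34 in AOpro(mut)-AO and 1.51 in AOpro(wt)-AO plants at 0 d. All 5 shoot markers were well above background on all arrays, and 1 to 4 of 5 root markers were, with a summed signal that did not exceed 0.10 on any array, in units of the 75th percentile. The summed signal of 7 flower markers was higher in AOpro(mut)-AO plants at each stage, though not that of every marker. It was 0.27 to 0.33 against 0.11 to 0.13 in AOpro(wt)-AO plants at 0 d, 0.62 to 0.83 against 0.28 to 0.45 after N starvation, and 0.90 to 1.25 against 0.29 to 0.49 after resupply, and *AMS* was not well above background on any array at 0 d or after N starvation. At 0 d *AG* ran the other way, with a mean log2 signal of -7.87 in AOpro(mut)-AO plants, where 0 of 3 arrays were well above background, and of -6.44 in AOpro(wt)-AO plants, where 3 of 3 were. The summed signal of 8 seed storage protein genes was 0.09 to 0.80 at 0 d and at most 0.06 later, with *SESA1* and *SESA2* not well above background at 0 d.

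Each of the 10 genes had 1 probe. Values are log2 signals relative to the 75th percentile of the array, so that 0 is a bright probe and -4 a dim one, and a level is set only against other levels of the same probe. Those of 9 genes passed the background test in all 3 arrays of at least 1 group and were tested with limma among 21060 genes. *MYB90* was well above background on 16 of the 18 arrays and the other 8 tested genes on all 18. *MYB114* was the only one of the 10 left out. It reached the background limit on 2 of 3 arrays in the starved group of each line and on no array of the other groups. Its signals were -7.47, -7.13 and -6.83 in starved AOpro(mut)-AO plants and -7.41, -6.52 and -6.71 in starved AOpro(wt)-AO plants. Against 0 d, where it was not well above background, *MYB114* measured 1.22-fold higher in starved AOpro(mut)-AO and 1.41-fold higher in starved AOpro(wt)-AO plants. For this the 0 d signal was taken as no lower than the dimmest probe well above background on each array. Resupplied plants, treated in the same way, measured 1.30-fold lower than starved ones in AOpro(mut)-AO and 1.64-fold lower in AOpro(wt)-AO plants. The starved means include replicate 1 of each line, which was not well above background, so these are not strict lower bounds. The folds carry no test. The 4 MYB genes are close in sequence, and whether their probes also capture each other's transcripts was not examined.

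**Figure D1:**
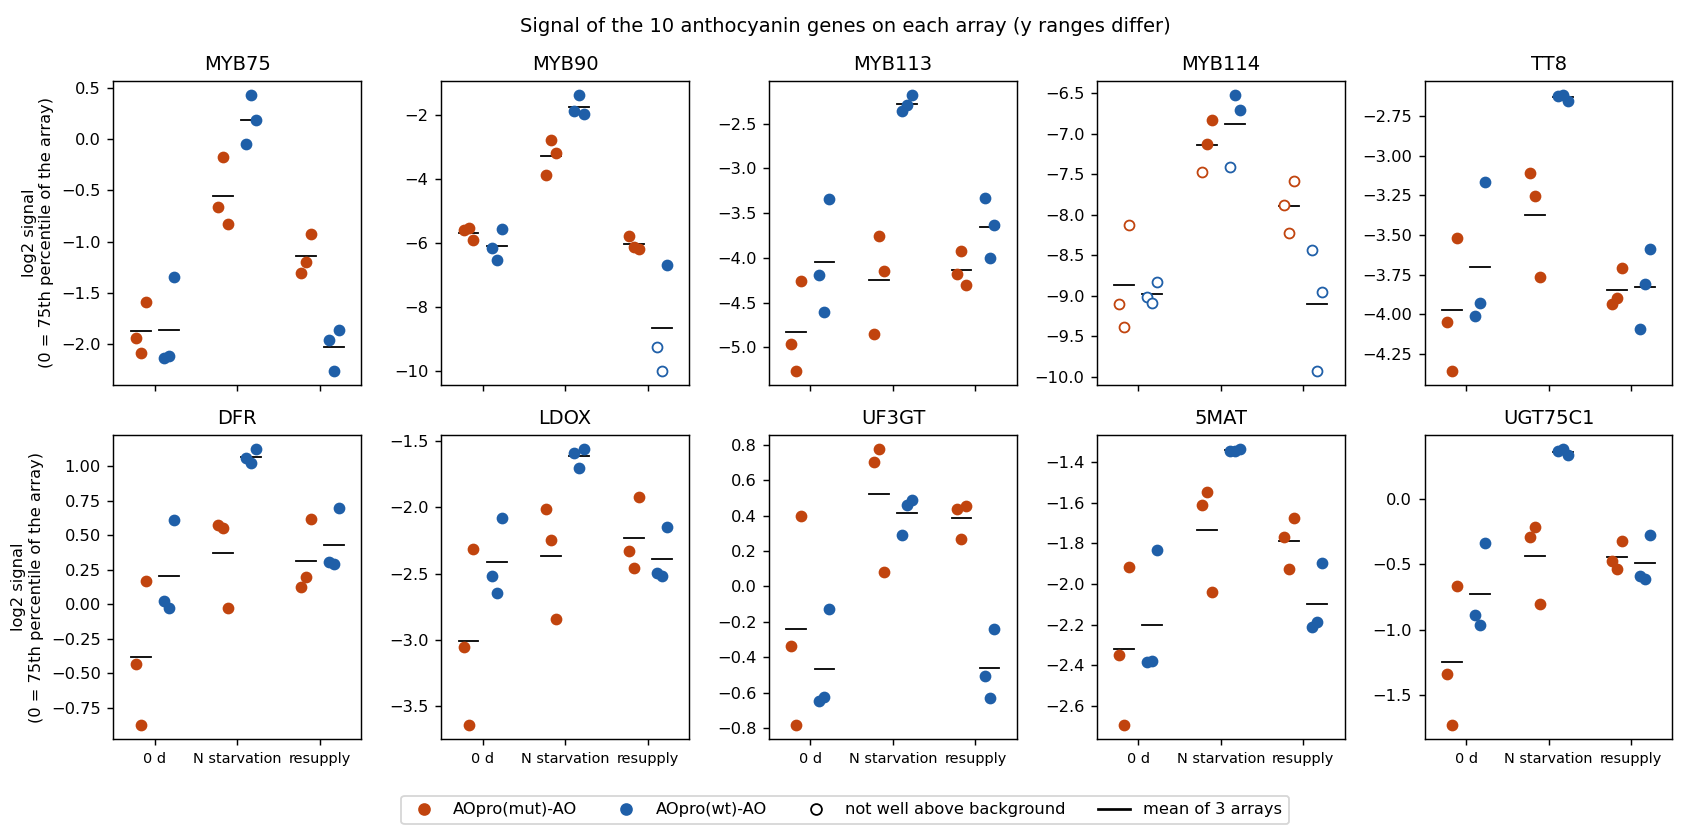
Log2 signal of each of the 10 genes (y axis, relative to the 75th percentile of the array, ranges differ between panels) at 0 d, after N starvation and after resupply (x axis), with AOpro(mut)-AO arrays in orange, AOpro(wt)-AO arrays in blue, open points for arrays not well above background and black lines for the mean of 3 arrays. The starved AOpro(wt)-AO arrays are the highest of all 18 for 8 of the 9 tested genes, UF3GT being the exception.

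The question was how the pathway genes differed between starved and unstarved plants in each line. In AOpro(mut)-AO plants *MYB75* passed both thresholds (adjusted p of 0.05 and a 2-fold change, that is 1 on the log2 scale). In AOpro(wt)-AO plants *MYB75*, *MYB113*, *TT8* and *UGT75C1* passed them, all upward. Whole shoots were sampled, so a change in the number of cells of a type and a change in RNA per cell cannot be told apart. These are 1 and 4 of the 8 tested genes other than *MYB90*, where 1.38% of all tested genes in AOpro(mut)-AO and 2.74% in AOpro(wt)-AO plants passed upward. *MYB90*, left out of these counts because its results were known beforehand, measured more than 2-fold higher in both lines. The median change of the 9 genes was 0.75 in AOpro(mut)-AO and 1.07 in AOpro(wt)-AO plants, with medians of 0.00 and -0.01 over all tested genes.

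*MYB75*, the main MYB activator of the pathway in shoots, lay at -0.66, -0.17 and -0.83 in starved AOpro(mut)-AO plants, against -1.94, -2.08 and -1.59 at 0 d. In starved AOpro(wt)-AO plants it lay at -0.05, 0.43 and 0.19, against -2.14, -2.11 and -1.34 at 0 d. Starved and unstarved arrays did not overlap in either line. *MYB75* rose 2.49-fold in AOpro(mut)-AO plants (log2 1.32, SE 0.22, adjusted p = 0.000486, limma). It rose 4.16-fold in AOpro(wt)-AO plants (log2 2.06, SE 0.22, adjusted p = 4.86e-06).

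*MYB90*, its close paralogue, lay at -3.88, -2.79 and -3.20 in starved AOpro(mut)-AO plants, against -5.60, -5.54 and -5.91 at 0 d. In starved AOpro(wt)-AO plants it lay at -1.90, -1.38 and -1.99, against -6.15, -6.54 and -5.55 at 0 d. The groups were again apart in each line, and the difference was the widest among the 9 genes. It was 2.39 (SE 0.59) in AOpro(mut)-AO and 4.33 (SE 0.59) in AOpro(wt)-AO plants on the log2 scale. At 0 d its processed signal was 29.2 to 62.5 units, near the background, and with another background correction (normexp) the difference was 0.95 in AOpro(mut)-AO and 3.08 in AOpro(wt)-AO plants. With normexp and quantile normalization it was 1.33 in AOpro(mut)-AO and 2.86 in AOpro(wt)-AO plants.

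*MYB113*, another activator of the same clade that lies beside *MYB114* and *MYB90* on chromosome 1, had the largest gap between the starved plants of the 2 lines. In starved AOpro(mut)-AO plants it lay at -4.85, -3.76 and -4.15, against -4.96, -5.26 and -4.25 at 0 d. In starved AOpro(wt)-AO plants it lay at -2.36, -2.30 and -2.18, against -4.19, -4.60 and -3.34 at 0 d. The AOpro(mut)-AO groups overlapped (log2 0.57, 95% confidence interval -0.13 to 1.28, adjusted p = 0.186, and -0.09 with normexp) and the AOpro(wt)-AO groups did not. *MYB113* rose 3.41-fold in AOpro(wt)-AO plants (log2 1.77, SE 0.33, adjusted p = 0.000393).

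*TT8* lay at -3.11, -3.25 and -3.76 in starved AOpro(mut)-AO plants, against -4.05, -4.36 and -3.52 at 0 d, a log2 difference of 0.60 that missed the threshold (SE 0.24, adjusted p = 0.0599). In starved AOpro(wt)-AO plants it lay at -2.62, -2.62 and -2.65, against -4.01, -3.93 and -3.17 at 0 d, and it rose by 1.07 on the log2 scale (SE 0.24, adjusted p = 0.00155). That call stood close to the fold minimum and was lost with normexp (0.94), with normexp and quantile normalization (0.83), and without AOpro(wt)-AO 0 d replicate 1 (0.92) or 2 (0.96). The 3 starved AOpro(wt)-AO arrays were much closer to each other than the 3 unstarved ones.

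The 5 late enzymes differed from 0 d by 0.59 to 0.81 in starved AOpro(mut)-AO and by 0.80 to 1.09 in starved AOpro(wt)-AO plants on the log2 scale. *UGT75C1*, the anthocyanin 5-O-glucosyltransferase, lay at -0.29, -0.21 and -0.81 in starved AOpro(mut)-AO plants, against -1.34, -1.73 and -0.67 at 0 d. It lay at 0.36, 0.38 and 0.33 in starved AOpro(wt)-AO plants, against -0.88, -0.97 and -0.34 at 0 d. It rose 2.13-fold in AOpro(wt)-AO plants (log2 1.09, SE 0.23, adjusted p = 0.00107), and its log2 difference of 0.81 in AOpro(mut)-AO plants had an adjusted p of 0.0128 but stayed under the fold minimum.

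*DFR*, which reduces dihydroflavonols, lay at 0.58, 0.55 and -0.02 in starved AOpro(mut)-AO plants, against -0.44, -0.88 and 0.17 at 0 d. Its signals were 1.06, 1.03 and 1.13 in starved AOpro(wt)-AO plants, against 0.03, -0.03 and 0.61 at 0 d, and these groups were apart. *UF3GT*, which moves a xylosyl group to the anthocyanin glucoside, lay at 0.70, 0.78 and 0.08 in starved AOpro(mut)-AO plants, against -0.34, -0.78 and 0.40 at 0 d. The signals in starved AOpro(wt)-AO plants were 0.29, 0.46 and 0.49, against -0.65, -0.63 and -0.13 at 0 d. It was the only tested gene of the set whose highest array was a starved AOpro(mut)-AO one.

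*LDOX*, the anthocyanidin synthase, lay at -2.01, -2.24 and -2.84 in starved AOpro(mut)-AO plants, against -3.06, -3.65 and -2.32 at 0 d. AOpro(wt)-AO plants had -1.59, -1.70 and -1.56 when starved, against -2.52, -2.65 and -2.08 at 0 d. *5MAT* lay at -1.61, -1.55 and -2.04 in starved AOpro(mut)-AO plants, against -2.35, -2.70 and -1.92 at 0 d, and at -1.34, -1.34 and -1.33 in starved AOpro(wt)-AO plants, against -2.39, -2.38 and -1.83 at 0 d. As for *DFR* and *UF3GT*, the groups overlapped in AOpro(mut)-AO and were apart in AOpro(wt)-AO plants. These 4 enzymes stayed under the fold minimum in both lines. Their log2 differences were 0.59 (*5MAT*) to 0.76 (*UF3GT*) in AOpro(mut)-AO plants, with adjusted p of 0.0239 for *5MAT*, 0.0256 for *UF3GT*, 0.0269 for *DFR* and 0.0876 for *LDOX*. In AOpro(wt)-AO plants they were 0.80 (*LDOX*) to 0.88 (*UF3GT*), with adjusted p of 0.026 for *LDOX*, 0.00791 for *DFR*, 0.00752 for *UF3GT* and 0.00141 for *5MAT*.

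The starved and unstarved arrays were apart, with the starved higher, for 2 of the 9 genes in AOpro(mut)-AO plants (23.8% of all tested genes) and for 9 of 9 in AOpro(wt)-AO plants (33.1%). The overlaps in AOpro(mut)-AO plants involved replicate 3 at 0 d or replicate 3 after N starvation. Replicate 3 at 0 d was the highest of its group for 8 of the 9 genes, and replicate 3 after N starvation was the lowest of its group for 7. In AOpro(wt)-AO plants replicate 3 at 0 d was the highest of its group for 9 of 9. The median deviation of all tested genes on these 3 arrays was within 0.01 of 0 on the log2 scale, and the summed seed marker signal was the lowest of its group on both replicate 3 arrays at 0 d (0.40 in AOpro(mut)-AO and 0.09 in AOpro(wt)-AO plants). The part of these in the changes was not tested.

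**Figure D2:**
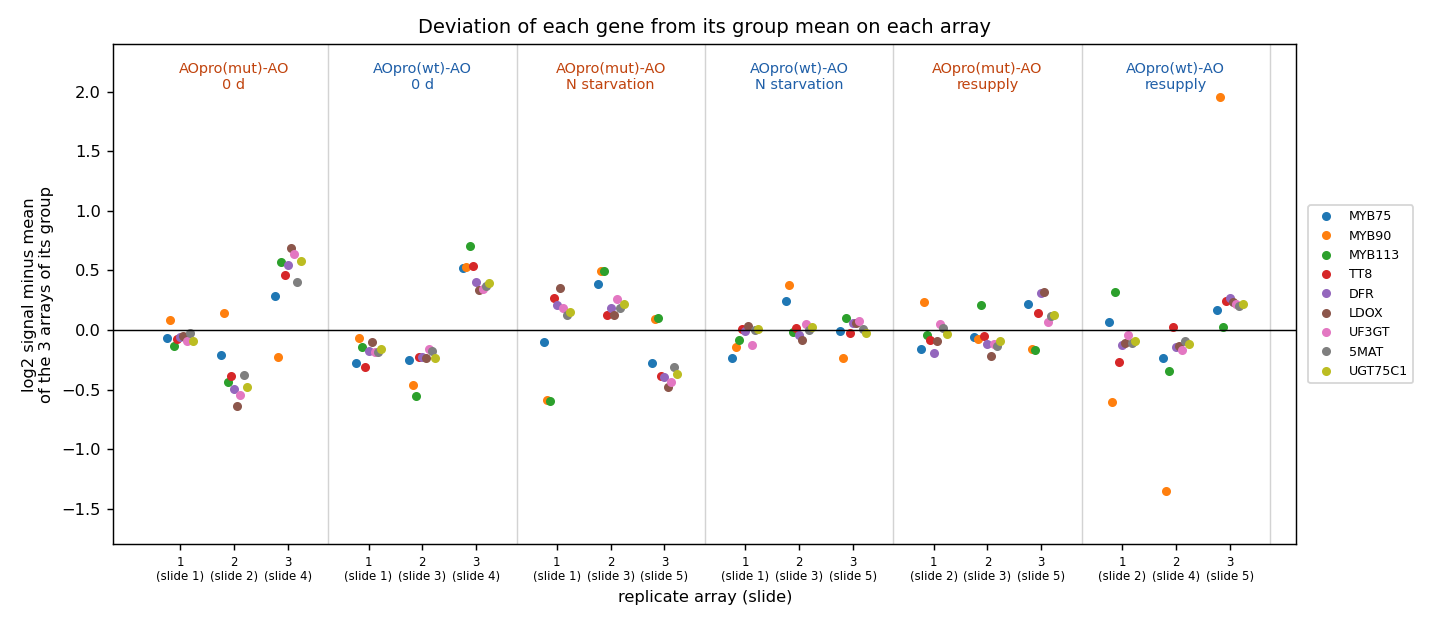
Deviation of each of the 9 tested genes from the mean of its group (y axis, log2) on each replicate array (x axis, with its slide), one colour for each gene. The genes lie together above 0 on replicate 3 at 0 d in both lines, with MYB90 of AOpro(mut)-AO plants below 0, and mostly below 0 on replicate 3 of starved AOpro(mut)-AO plants.

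With replicate 3 at 0 d of the line left out, 4 of the 8 genes other than *MYB90* passed both thresholds in AOpro(mut)-AO and 7 of 8 in AOpro(wt)-AO plants. Without AOpro(wt)-AO 0 d replicate 2 the AOpro(wt)-AO count was 2 of 8, with *UGT75C1* at 0.97. AOpro(mut)-AO 0 d replicate 2 was the lowest of its group for 8 of the 9 genes. With it left out the AOpro(mut)-AO count was 1 of 8, with *UGT75C1* at 0.57, *DFR* at 0.50 and *UF3GT* at 0.49. Within single slides, where 1 starved and 1 unstarved array could be compared, all 9 genes were higher after N starvation, with a median of 1.04 in AOpro(mut)-AO plants on slide 1 and of 1.25 and 1.32 in AOpro(wt)-AO plants on slides 1 and 3.

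Whether the change from 0 d to N starvation differed between the 2 lines was asked with the interaction term. All 9 estimates were below 0, that is, a smaller change in AOpro(mut)-AO plants, and none of the 8 genes other than *MYB90* reached the threshold of an unadjusted p of 0.001 that 1.43% of all tested genes passed in this direction. The estimates furthest from 0 were those of the MYB factors. The estimate was -1.19 for *MYB113* (SE 0.47, unadjusted p = 0.0223, adjusted p = 0.13, limma) and -0.74 for *MYB75* (SE 0.32, unadjusted p = 0.0349, adjusted p = 0.165), and -1.93 for *MYB90* (SE 0.84). For *TT8* it was -0.47 (95% confidence interval -1.19 to 0.25). For the 5 enzymes it lay between -0.28 and -0.12, with the widest interval from -1.02 to 0.70 (*LDOX*). Without AOpro(mut)-AO 0 d replicate 3 it was 0.01 for *UGT75C1*, 0.16 for *DFR*, 0.19 for *LDOX* and 0.20 for *UF3GT*. Without AOpro(mut)-AO 0 d replicate 2 it was -0.52 for *UGT75C1*, -0.37 for *DFR* and -0.39 for *UF3GT*. For *LDOX* it was -0.51 with normexp. The *MYB90* estimate was -1.52 with normexp and quantile normalization together.

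**Figure D3:**
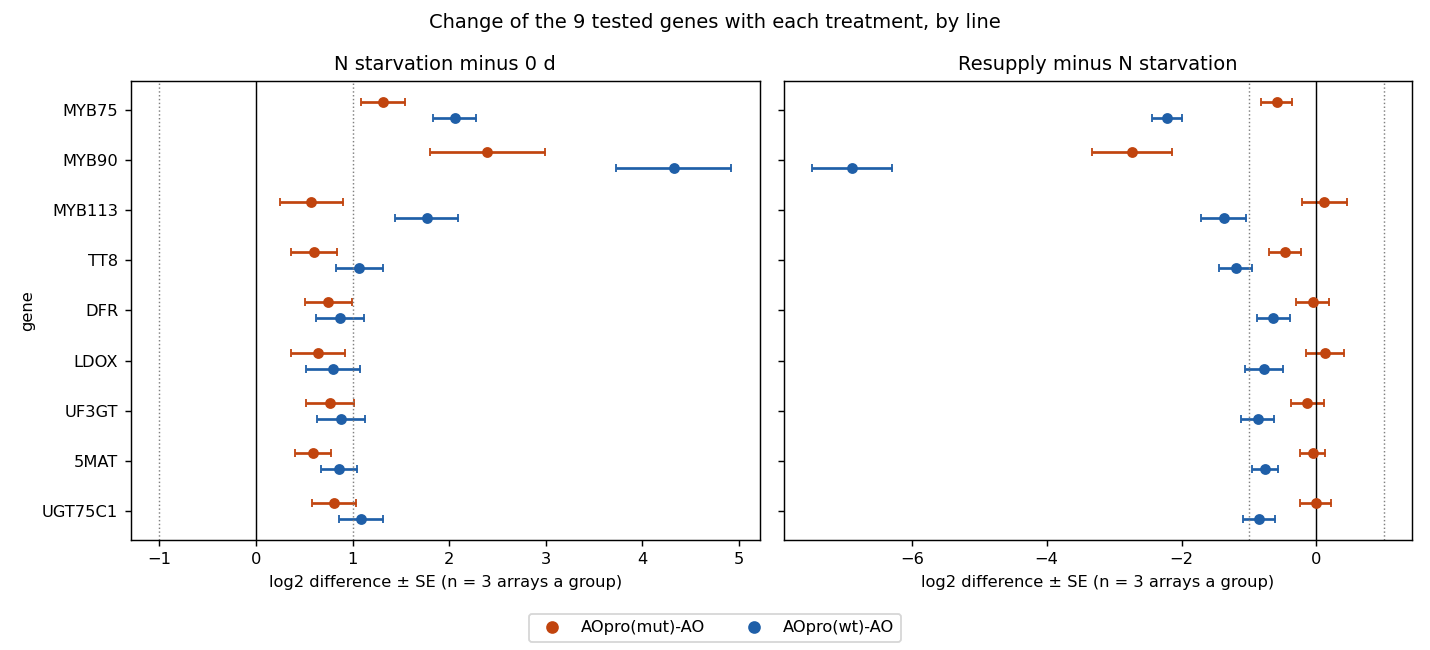
Log2 difference with its standard error (x axis) of the 9 tested genes (y axis) after N starvation against 0 d (left) and after resupply against N starvation (right), AOpro(mut)-AO in orange above AOpro(wt)-AO in blue, dotted lines at 2-fold. Left, every point is above 0 and each orange point lies left of its blue one. Right, the AOpro(wt)-AO points lie between -6.89 and -0.64 and the AOpro(mut)-AO points, MYB90 aside, between -0.59 and 0.13.

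The lines were compared at each stage. At 0 d none of the 9 genes differed past both thresholds, where 5.78% of all tested genes did, and the arrays of the lines overlapped for all 9, while 27.3% of all tested genes were apart with AOpro(mut)-AO lower and 26.2% with AOpro(mut)-AO higher. The differences ranged from -0.78 for *MYB113* (SE 0.33, adjusted p = 0.0795, limma) to 0.39 for *MYB90* (SE 0.59, adjusted p = 0.645). *DFR*, *LDOX* and *UGT75C1* were at -0.58, -0.59 and -0.52 with adjusted p between 0.0808 and 0.119. Without AOpro(mut)-AO 0 d replicate 3 or without AOpro(wt)-AO 0 d replicate 2 *MYB113* passed both thresholds at -1.06 (adjusted p = 0.027 and 0.0323). With normexp the *MYB113* difference was 0.10, of the other sign. Within slides the median of the 9 genes was -0.04 on slide 1 and -0.33 on slide 4.

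After N starvation the arrays of the 2 lines did not overlap, with AOpro(mut)-AO lower, for 8 of the 9 genes, where 31.4% of all tested genes were apart in that direction. Of the 8 genes other than *MYB90* 1 passed both thresholds (3.25% of all tested genes, downward). *MYB113* was 3.93-fold lower in AOpro(mut)-AO plants (log2 -1.97, SE 0.33, adjusted p = 0.000194), and *MYB90* measured -1.54 (SE 0.59). *MYB75*, *TT8*, *DFR*, *LDOX* and *UGT75C1* were at -0.80 to -0.70, with adjusted p between 0.0105 and 0.0398 but under the fold minimum. *5MAT* was at -0.39 (adjusted p = 0.1). *UF3GT* was at 0.11 (95% confidence interval -0.43 to 0.64, adjusted p = 0.746) and was the only one of the 9 whose arrays overlapped between the lines.

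On each of the 3 slides that held a starved array of both lines the median of the 9 genes was below 0. It was -0.48 on slide 1, -0.60 on slide 3 and -1.14 on slide 5, and *MYB113* was at -2.49, -1.46 and -1.97. The *MYB90* difference lay between -1.79 and -1.24 over the alternatives run. *MYB113* passed both thresholds under every alternative run, with -2.22 to -1.43. The flower markers given above were higher in starved AOpro(mut)-AO plants, and their part in these results was not tested.

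After resupply the differences were of the other sign for *MYB75* and *MYB90*, and by less for *5MAT* (0.31), *LDOX* (0.16) and *UGT75C1* (0.05). *MYB113* (-0.48), *DFR* (-0.12) and *TT8* (-0.02) stayed below 0, and *UF3GT* was above 0 at both stages. *MYB75* lay at -1.31, -1.20 and -0.93 in resupplied AOpro(mut)-AO plants and at -1.96, -2.26 and -1.87 in resupplied AOpro(wt)-AO plants. The groups were apart, and the difference of 0.89 (SE 0.22, adjusted p = 0.00511) was under the fold minimum. *UF3GT* lay at 0.44, 0.27 and 0.45 in AOpro(mut)-AO and at -0.51, -0.63 and -0.24 in AOpro(wt)-AO plants (difference 0.85, SE 0.25, adjusted p = 0.0127). *MYB90* lay at -5.80, -6.11 and -6.19 in AOpro(mut)-AO plants, and in AOpro(wt)-AO plants it was well above background on only 1 of 3 arrays, at -6.69, with -9.24 and -9.99 on the others.

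None of the 8 genes other than *MYB90* passed both thresholds after resupply, where 4.43% of all tested genes passed upward. The measured *MYB90* difference of 2.61 (SE 0.59) rests on 2 AOpro(wt)-AO arrays at background, and it was -0.03 with normexp, 0.48 with normexp and quantile normalization, and 0.66 with the series matrix values. The arrays of 3 of the 9 genes (*MYB75*, *MYB90* and *UF3GT*) did not overlap, with AOpro(mut)-AO higher (27.6% of all tested genes). The other 6 differed by -0.48 to 0.31 with adjusted p of 0.202 or more and intervals from -1.18 (*MYB113*) to 0.76 (*LDOX*). Within slides the median of the 9 genes was 0.17 on slide 2 and 0.22 on slide 5.

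**Figure D4:**
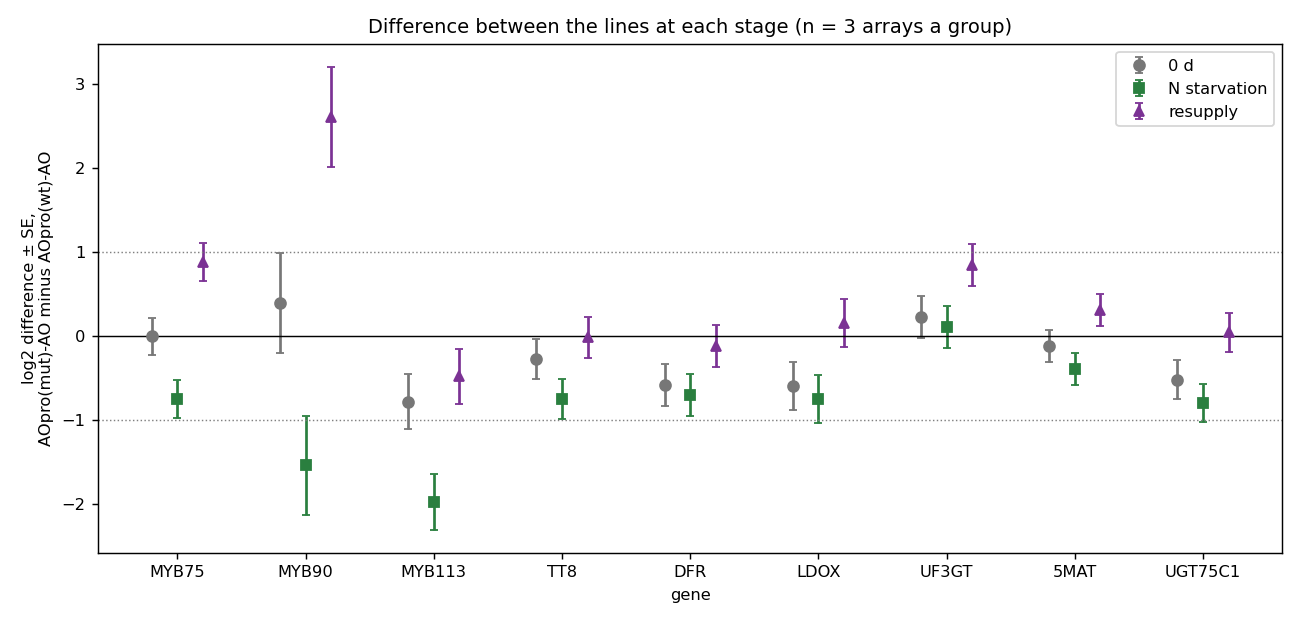
Log2 difference between AOpro(mut)-AO and AOpro(wt)-AO plants with its standard error (y axis) for the 9 tested genes (x axis) at 0 d (grey circles), after N starvation (green squares) and after resupply (purple triangles), dotted lines at 2-fold. The squares lie below 0 for 8 of 9 genes, UF3GT being at 0.11, and the triangles are the highest of the 3 symbols for every gene.

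*UF3GT* lies on chromosome 5 among genes that were themselves higher in AOpro(mut)-AO plants. Of the 10 tested genes on each side of it in gene order, 20 of 20 were higher in AOpro(mut)-AO plants at 0 d and 19 of 20 at each later stage, with medians of 0.90, 1.05 and 1.12 at 0 d, after N starvation and after resupply. *UF3GT* itself was at 0.23, 0.11 and 0.85. The 20 neighbours of each of the other 8 genes had medians between -0.20 and 0.13. The part of this neighbourhood in the *UF3GT* values was not tested.

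The median difference of the resupplied from the starved plants over the 9 genes was -0.06 in AOpro(mut)-AO and -0.87 in AOpro(wt)-AO plants, with 0.01 and -0.02 over all tested genes. In AOpro(mut)-AO plants 1 of the 9 genes, *MYB90*, was past 2-fold downward (0.959% of all tested genes). In AOpro(wt)-AO plants 4 of 9 were (2.84%), *MYB90* among them. Nothing is read from these counts, since earlier results of this contrast were known.

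In resupplied AOpro(mut)-AO plants *MYB90* was 2.74 (SE 0.59) lower than in the starved plants on the log2 scale, *MYB75* 0.59 (SE 0.22) and *TT8* 0.47 (SE 0.24) lower. The other 6 genes lay between -0.14 and 0.13. Resupplied and starved arrays were apart for 2 of the 9 genes there. In resupplied AOpro(wt)-AO plants *MYB75* was lower by 2.22 (SE 0.22), *MYB113* by 1.38 (SE 0.33) and *TT8* by 1.20 (SE 0.24), and the 5 enzymes by 0.64 to 0.87. All 9 genes were apart there, where 28.4% of all tested genes were apart in that direction (21.4% in AOpro(mut)-AO plants). The measured *MYB90* difference was -6.89 (SE 0.59), with 2 of the 3 resupplied arrays not above background, and -3.09 with normexp.

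The resupplied levels of the enzymes other than *UF3GT* overlapped between the lines. *DFR* lay at 0.12, 0.20 and 0.62 in resupplied AOpro(mut)-AO plants, against 0.58, 0.55 and -0.02 in the starved ones. It lay at 0.31, 0.29 and 0.70 in resupplied AOpro(wt)-AO plants, against 1.06, 1.03 and 1.13 in the starved ones. All 9 differences between the lines in the change with resupply were above 0, between 0.58 (*DFR*) and 4.15 (*MYB90*). The *MYB90* value rests on 2 resupplied AOpro(wt)-AO arrays at background and was 1.31 with normexp, 1.86 with normexp and quantile normalization, and 2.20 with the series matrix values. Those of *MYB75* (1.63, SE 0.32), *MYB90* and *MYB113* (1.50, SE 0.47) were past 2-fold (1.71% of all tested genes). Nothing is read from this count either. This contrast uses the same starved arrays as the one with N starvation. Within slide 5 the 9 genes were all lower after resupply in AOpro(wt)-AO plants (median -0.73), while in AOpro(mut)-AO plants the median was -0.38 on slide 3 and 0.37 on slide 5, the slide of the starved replicate 3 that lay low. The resupplied arrays on slide 5 were the highest of their groups for 7 of the 9 genes in AOpro(mut)-AO and 8 in AOpro(wt)-AO plants.

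The resupplied plants were also set against the unstarved ones. In AOpro(mut)-AO plants none of the 8 genes other than *MYB90* was past both thresholds (2.14% of all tested genes were, upward), but 7 of the 8 lay 0.53 to 0.80 above 0 d on the log2 scale, with *TT8* at 0.13 and *MYB90* at -0.34. The adjusted p was 0.0181 for *UGT75C1* (0.80, SE 0.23), 0.0252 for *MYB75* (0.72, SE 0.22), 0.0463 for *DFR* and 0.0466 for *5MAT*, and 0.0522 to 0.128 for *LDOX*, *UF3GT* and *MYB113*, the last of which was at -0.21 with normexp. In AOpro(wt)-AO plants 8 of the 9 genes differed from 0 d by -0.17 to 0.39, with adjusted p of 0.37 or more, and *MYB90* measured -2.56 (SE 0.59), where 2 of the 3 resupplied arrays were at background. The median over the 9 genes was 0.69 in AOpro(mut)-AO and 0.02 in AOpro(wt)-AO plants.

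These differences from 0 d lean on single arrays too. Without AOpro(mut)-AO 0 d replicate 3 *UGT75C1* (1.09, adjusted p = 0.00218) and *LDOX* (1.12, adjusted p = 0.00652) passed both thresholds. Without AOpro(mut)-AO 0 d replicate 2 *UGT75C1* was at 0.56, *DFR* at 0.45 and *UF3GT* at 0.36. On slide 4, which held a resupplied and an unstarved AOpro(wt)-AO array, all 9 genes were lower after resupply, with a median of -0.51. On slide 2, 8 of 9 were higher in AOpro(mut)-AO plants, with a median of 1.00. The slide 4 unstarved array was the replicate 3 that lay high. The slide 2 unstarved array was replicate 2, the lowest of its group for 8 of the 9 genes. The *MYB90* difference in AOpro(wt)-AO plants was -0.01 with normexp, -0.51 with normexp and quantile normalization and -0.61 with the series matrix values.

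Over the 18 arrays *5MAT*, *UGT75C1* and *TT8* followed the other 8 genes most closely, with Pearson's r of 0.97, 0.95 and 0.93 against their mean, and *MYB90* least, with 0.65. Among single pairs *DFR* and *UGT75C1* had an r of 0.98, *LDOX* and *UGT75C1* 0.96 and *MYB75* and *MYB90* 0.87, while *UF3GT* and *MYB113* had 0.34. The arrays are not independent points, since they share groups, slides and the array shifts given above. Of 20904 other tested genes, whose median r with the mean of the 9 was -0.04, the closest were AT1G03495 (0.98), *GSTF12* (0.97) and AT1G03940 (0.95). *GSTF12* is *TT19*, the glutathione S-transferase that anthocyanins need to reach the vacuole, and the other 2 are the anthocyanin coumaroyltransferases *3AT2* and *3AT1*. AT2G47710, *NF-YA4*, AT2G35760, AT4G22870, AT5G64550, *APL3* and AT3G07700 followed with 0.90 to 0.94. AT4G22870 is the locus next to *LDOX*, and whether their probes share transcripts was not examined. *APL3*, a large subunit of the starch enzyme ADP-glucose pyrophosphorylase, differed by 0.69 (SE 0.09) in starved AOpro(mut)-AO and by 1.50 (SE 0.09) in starved AOpro(wt)-AO plants from 0 d.

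The other genes of the pathway, in 6 lists of 34 genes of which 32 were tested, moved in both directions. The lists were put together with earlier results of these data known, and their counts are descriptions. *TT19* was the only gene of 6 other late enzymes and transporters past both thresholds after N starvation, and it rose in AOpro(wt)-AO plants (1.11, SE 0.24, adjusted p = 0.00132), with 0.86 (SE 0.24, adjusted p = 0.0114) in AOpro(mut)-AO plants. The medians of these 6 were 0.56 in AOpro(mut)-AO and 0.68 in AOpro(wt)-AO plants. The 9 early enzymes, which feed flavonols as well, had medians of 0.14 in AOpro(mut)-AO plants, with none past the thresholds (1.05% of all tested genes passed downward), and of -0.59 in AOpro(wt)-AO plants. There *CHIL* (-1.11, adjusted p = 0.00576), *4CL3* (-1.06, adjusted p = 0.00612) and *PAL1* (-1.02, adjusted p = 0.000836) fell, where 2.01% of all tested genes passed downward. The early enzyme *F3'H* went the other way, under the fold minimum. It was at 0.76 (SE 0.31, adjusted p = 0.0471, limma) in AOpro(wt)-AO and at 0.85 (SE 0.31, adjusted p = 0.0417) in AOpro(mut)-AO plants. Of the 4 flavonol genes only the flavonol synthase *FLS1* fell in AOpro(wt)-AO plants (-1.05, adjusted p = 0.00594).

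The complex partners *TTG1*, *GL3* and *EGL3* did not pass the thresholds with N starvation. *GL3* and *EGL3*, which also act in trichome formation, were higher in AOpro(mut)-AO plants after resupply by 1.07 (SE 0.16) and 1.12 (SE 0.08), and *GL3* by 1.08 (SE 0.16) at 0 d, each with an adjusted p of 0.000104 or less. *TT2*, the MYB of the seed coat, was well above background on 3 of 3 starved AOpro(wt)-AO arrays and on none of that line at 0 d. It was at least 1.69-fold higher after N starvation there (adjusted p = 0.01). In AOpro(mut)-AO plants *TT2* was well above background on 3 of 3 starved arrays and on 2 of 3 at 0 d (0.80, SE 0.33, adjusted p = 0.0681, limma). *BAN* and *TT12*, also of the seed coat, were not well above background on all arrays of any group.

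The 8 repressors of anthocyanin genes contained the nitrate-induced LOB domain genes *LBD37*, *LBD38* and *LBD39*, which also repress N-responsive genes. In starved AOpro(mut)-AO plants they were at -0.64, -0.87 and -0.98 against 0 d, with adjusted p of 0.000428 or less but under the fold minimum. In starved AOpro(wt)-AO plants they fell, with -1.60, -1.85 and -2.64 (adjusted p of 1.09e-07 or less). The interaction was past its threshold for all 3 of them and for no other tested gene of the lists, where 2.6% of all tested genes passed upward. Its estimate was 0.97 for *LBD37* (SE 0.15, unadjusted p = 1.47e-05), 0.98 for *LBD38* (SE 0.14, unadjusted p = 5.52e-06) and 1.66 for *LBD39* (SE 0.16, unadjusted p = 5.54e-08).

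After N starvation 5 of the 8 repressors were higher in AOpro(mut)-AO plants, where 3.96% of all tested genes passed upward. *LBD39* was higher by 2.13 (SE 0.11), *LBD38* by 1.31 (SE 0.10) and *LBD37* by 1.06 (SE 0.11). *MYBL2*, an R3-MYB that acts against the complex, was higher in AOpro(mut)-AO plants by 1.25 (SE 0.18, adjusted p = 8.34e-05) at 0 d, by 1.40 (SE 0.18, adjusted p = 1.87e-05) after N starvation and by 1.08 (SE 0.18, adjusted p = 0.000213) after resupply. *TRY*, an R3-MYB of trichome patterning, was higher by 1.15 (SE 0.23, adjusted p = 0.000889) after N starvation, but its neighbours on chromosome 5 were higher too, 20 of 20 with a median of 0.95.

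**Figure D5:**
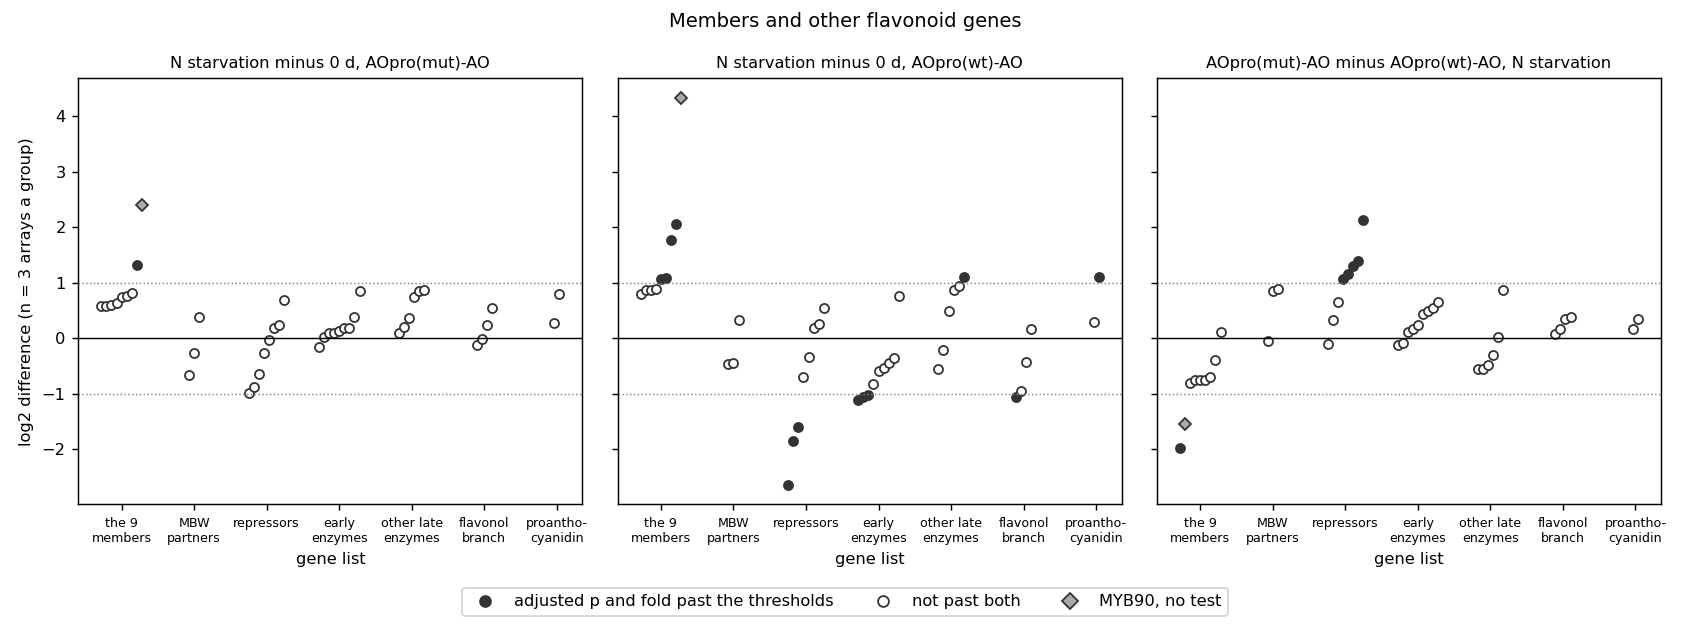
Log2 difference (y axis) of the 9 tested genes and of 6 lists of other flavonoid genes (x axis, 1 point a gene) for N starvation against 0 d in AOpro(mut)-AO and in AOpro(wt)-AO plants and for AOpro(mut)-AO against AOpro(wt)-AO after N starvation, filled where a gene passed the adjusted p and the fold thresholds, with MYB90 as a grey diamond that carries no test, dotted lines at 2-fold. In the right panel 8 of the 9 genes lie below 0 and 5 repressors above 1.

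After resupply 11 of the 32 tested genes of the lists were higher in AOpro(mut)-AO plants, where 4.43% of all tested genes passed upward. They included 4 of 9 early enzymes, among them chalcone synthase *CHS* (1.33, SE 0.34, adjusted p = 0.00551), *CHIL* (1.56, SE 0.30, adjusted p = 0.000721) and *4CL3* (1.23, SE 0.29, adjusted p = 0.00303). *FLS1* was higher by 1.52 (SE 0.29, adjusted p = 0.000565), and the flavonol regulator *MYB11*, not well above background on any resupplied AOpro(wt)-AO array, was at least 2.55-fold higher (adjusted p = 0.00399). None of the 6 other late enzymes was among the 11. Set against 0 d, 6 of 9 early enzymes and 3 of 4 flavonol genes were lower in resupplied AOpro(wt)-AO plants (1.73% of all tested genes) and none in AOpro(mut)-AO plants (1.23%), while the 5 late enzymes described above were within 0.24 of 0 d in AOpro(wt)-AO plants. Whether the early and the late genes differed in this was not tested.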

How the data were processed

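RNA from whole shoots was labelled with Cy3 and hybridised to 18 Agilent arrays, 1 sample an array. Per the file headers the authors' scanner output came from Agilent Feature Extraction 12.1.1.1, and the deposited intensities used here are its processed signals, already background-subtracted, together with raw median intensities and spot flags. The deposited series matrix holds linear intensities of the same spots, close to the processed signal divided by the 75th percentile of the array, with 0 at dim spots. Its scaling is not given in the sources used here.

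Signals were taken as log2 minus the 75th percentile of each array over non-control probes, with outlier spots left out and repeated spots averaged. Probes of genes that were well above background on all 3 arrays of at least 1 group (29416 probes, 21060 genes) were fitted with limma 3.58.1 in R 4.3.3 on 6 group means over all 18 arrays, with Benjamini-Hochberg adjustment over all tested probes. A gene was read on its brightest tested probe. A call needed an adjusted p of 0.05 or less and a log2 change of 1 or more in size, and the interaction an unadjusted p of 0.001 or less. The fit was tested on simulated data. Alternatives were quantile normalization, normexp with an offset of 50, the series matrix values with a floor of 0.01, other filters, array weights, a trended variance, replicate or slide as a block, only the arrays compared, and each array left out.

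The members and the gene lists were chosen with earlier results of these data known, and p-values do not correct for that choice. Contrasts share their starved or resupplied arrays. In the results *MYB90*, its values being known, is left out of counts with a p threshold on starved or resupplied arrays. Counts past 2-fold alone with resupply include it, as descriptions. All 9 tested members are named, with other listed genes where they passed a threshold or a comparison turned on them, and the 10 genes closest to the mean member profile by Pearson's r over the 18 arrays. With 3 arrays a group, p-values measure the spread between pools of seedlings of 1 line, and the number of arrays limits the precision. Replicate numbers were not used to pair the arrays, except in the replicate block. No sequence was printed, since none was at hand for these genes.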

Additional observations from a re-analysis of the deposited data

Results flagged for a closer look

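*MYB114*, left out of the tests by the filter on dim probes, still gave a signal above the background limit on starved arrays and on no other, with a highest log2 value of -6.83 in starved AOpro(mut)-AO and of -6.52 in starved AOpro(wt)-AO plants. The change with N starvation differed between the lines for the repressors *LBD37*, *LBD38* and *LBD39*, with interaction estimates of 0.97, 0.98 and 1.66 on the log2 scale (limma, adjusted p = 0.00378, 0.00227 and 9.06e-05). In the 3 genes the fall was smaller in AOpro(mut)-AO plants. No test for a single array far from its group was run, since each group has 3 arrays.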

How the results depend on the processing

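Outside left-out arrays, the counts of the 9 genes past the thresholds, given here with *MYB90* included as a description, changed by more than 1.5 times as follows. With normexp the count was 1 for N starvation in AOpro(mut)-AO plants and 1 between the lines after N starvation, 0 between the lines after resupply, 2 past 2-fold with resupply in AOpro(wt)-AO plants and 0 for resupplied against unstarved AOpro(wt)-AO plants. With normexp and quantile normalization, and with the series matrix values, it was 0 between the lines after resupply, 1 for the interaction with N starvation and 0 for resupplied against unstarved AOpro(wt)-AO plants. Without the filter on dim probes it was 1 between the lines after N starvation and 2 after resupply, *MYB114* being added. With probes well above background on all arrays, which leave out *MYB90*, it was 1 for N starvation in AOpro(mut)-AO plants, 1 between the lines after N starvation, and 0 between the lines after resupply, with resupply in AOpro(mut)-AO plants and for resupplied against unstarved AOpro(wt)-AO plants. With only the arrays compared it was 0 between the lines after resupply and 0 for resupplied against unstarved AOpro(wt)-AO plants. With the slide as a block it was 1 for N starvation in AOpro(mut)-AO plants and 1 between the lines after N starvation. The causes were not tested, but *MYB90* was the gene lost in each lower count, apart from resupply in AOpro(wt)-AO plants, where *MYB113* and *TT8* were lost, and it was the gene gained for the interaction.

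The only called value that changed sign was the *MYB90* line difference after resupply, -0.032 with normexp. Of 1276 single-gene values under these alternatives 17 uncalled ones changed sign. The replicate block left every count as it was (5 for N starvation in AOpro(wt)-AO, 2 in AOpro(mut)-AO plants, 2 between the lines after N starvation). Deviations of same-numbered arrays correlated at -0.22 to 0.31 and those of other arrays at -0.24 to 0.33. These values cannot show whether same-numbered plants were grown or handled together. Over the 9 genes, replicate 3 was the highest of its group for 8 in AOpro(mut)-AO and 9 in AOpro(wt)-AO plants at 0 d. After N starvation these counts were 0 and 5, and after resupply 7 and 8.

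With single arrays left out the counts ranged from 2 to 5 for N starvation in AOpro(mut)-AO and from 3 to 8 in AOpro(wt)-AO plants, from 0 to 1 between the lines at 0 d and from 1 to 2 after N starvation, and from 0 to 2 for resupplied against unstarved AOpro(mut)-AO plants. The count for the interaction with resupply was 3 to 4, and the counts of the other comparisons did not change. Normexp moved the median of all probes by up to 0.13 on the log2 scale (-0.13 for N starvation in AOpro(mut)-AO plants). Signals near background limit *MYB90* and *MYB114*.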
